A study of Mus musculus with 4 samples.

Results

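Of the 897 Plzf +/+ cells in the deposited tables, 101 carried at least 1 unique molecular identifier (UMI) of T and no UMI of Eomes. These T-positive Eomes-negative cells, called T-positive cells from here on, are described against 202 Plzf +/+ cells with 0 UMIs of both genes, 2 for each T-positive cell, taken from the same library and matched on total UMIs. The cells were chosen by their T and Eomes counts, so the counts of these 2 genes are given as a description, with no test. T-positive cells numbered 32, 43 and 26 in the libraries of plates 1, 2 and 4, and the whole series holds 1249 cells.

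The cells came from testes of mice aged 4 wk, on a B6N.Cg background with the allele Eomes<tm1.1(icre/ERT2)Reb>, and were sorted by tdTOMATO fluorescence after dead cells had been gated out with DAPI. Every animal of both genotypes carried the Eomes-iCreERt2-tdTomato knock-in allele, so the controls carried it too, and the reporter marks cells in which the Eomes locus was active. The 3 Plzf +/+ libraries carried the intact Plzf gene, and the 2 Plzf lu/lu libraries (plates 3 and 4) carried the luxoid mutation of Plzf, which the tables list as Zbtb16. One cell was sorted per well, and transcripts were counted from their 3′ ends by UMI. The labels name plates but no animals, so libraries served as replicates, and their spread may be technical. Between cell groups, p-values measure the spread over libraries of the difference within a library. Between genotypes, they measure the spread between libraries. Plates 1 and 2 held Plzf +/+ cells alone and plate 3 Plzf lu/lu cells alone, so that genotype and plate cannot be told apart there. On plate 4, which held both genotypes in separate wells, 5 of the 277 cells tabled as Plzf +/+ lay in wells that the labels give to Plzf lu/lu, and the table's genotype was kept. None of these 5 was a T-positive or a matched cell, and 1 was a matched Gfra1-positive cell.

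T, also called Brachyury, encodes a DNA-binding factor of the T-box family, the family of Eomes, and is best known from the primitive streak and notochord of the embryo. In the testis, spermatogonial stem cells keep up sperm production by dividing to renew themselves and to give rise to progenitors, which respond to retinoic acid and become differentiating spermatogonia. Sertoli cells secrete GDNF, which acts on spermatogonia through the receptors GFRA1 and RET and maintains Etv5, Bcl6b and Lhx1, and FGF signals act on an overlapping set of genes.

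The 101 T-positive cells held 656892 UMIs in all, with 1161 to 23566 UMIs per cell. Their median was 5603 UMIs and 3079 genes per cell, against 5633.5 UMIs and 2928 genes in the matched cells, and mitochondrial genes held 4.79% and 5.11% of the UMIs. The germ cell genes Dazl and Ddx4 had a UMI in 98.0% and 94.1% of T-positive cells, against 96.0% and 90.1% of matched cells, so that most cells of both groups carried germ cell transcripts. No doublets were removed, and a total above 4 times the Plzf +/+ median of 5908 UMIs was seen in 0 T-positive cells and 1 matched cell. All plates used the same set of well barcodes, so the 3 Plzf +/+ libraries shared 236 to 271 barcodes pairwise, and T-positive cells shared 2 to 9. The 101 cells lay in 86 distinct wells, in 16 of 16 plate rows and 23 of 24 columns. In plate 2, a single T-positive cell carried 3395 UMIs of the spermatid marker list, 88.0% of the list's UMIs over all T-positive cells. In all, 7 T-positive and 22 matched cells carried 10 or more spermatid UMIs, and results that rest on them are given with and without these cells.

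The share of T-positive cells was 10.1% in plate 1, 14.2% in plate 2 and 9.39% in plate 4, a mean of 11.2% ± 2.6 (SD, n = 3). Over all 897 cells the share was 11.3% (exact Clopper-Pearson 95% interval 9.27 to 13.5, which covers counting error only). Of the 352 Plzf lu/lu cells, 4 met the same rule (1.14%, interval 0.31 to 2.88), all from plate 3, while plate 4 had 0 of 38 (3 counts of the total would be 7.89%, and the exact upper bound is 9.25%). Sertoli-marked cells were taken from both genotypes and had at least 4 Sertoli marker genes and no Dazl UMI. None of the 29 carried T (10.3% by 3 counts, exact upper bound 11.9%), with a median of 3162 UMIs. Their shares are set beside those of Plzf +/+ cells without separating the genotypes. Of the 91 cells with no Dazl UMI, 2 carried T (2.2%) and 8 carried Lhx1, with a median of 2383 UMIs.

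T was sparse in the cells that carried it. The 101 cells held 151 T UMIs, with 1 UMI in 67 cells, 2 in 21, 3 in 10 and 4 in 3. The rule therefore turns on 1 molecule in most of these cells, and 34 cells (3.79% of Plzf +/+ cells) remained at 2 or more UMIs. When each cell was thinned to 2000 UMIs, 45 of 834 cells met the rule (5.4%), and at 1000 UMIs 31 of 896 (3.46%). The T level was 257, 226 and 205 CPM in plates 1, 2 and 4, where CPM (counts per 1000000) is the UMIs of a gene scaled to a total of 1000000 UMIs over the summed cells. A further 33 Plzf +/+ cells carried T together with Eomes. These count among the 85 Eomes-positive cells, of which 52 had no T UMI.

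The 4 marker genes proposed for these cells were T, Lhx1, Barx1 and Plvap, chosen with earlier results of these data known. The sequence around the start is shown for the 3 genes of smallest adjusted p among the 12 that rose most in T-positive cells: Lhx1 (chr11:84525485-84525784, minus strand), Barx1 (chr13:48662786-48663085, plus strand) and Nid1 (chr13:13437352-13437651, plus strand). Each runs from 250 bases before to 50 after the annotated start, from RefSeq on GRCm38.p6, and capitals mark the ETS core CCGGAA, searched on both strands.
Lhx1: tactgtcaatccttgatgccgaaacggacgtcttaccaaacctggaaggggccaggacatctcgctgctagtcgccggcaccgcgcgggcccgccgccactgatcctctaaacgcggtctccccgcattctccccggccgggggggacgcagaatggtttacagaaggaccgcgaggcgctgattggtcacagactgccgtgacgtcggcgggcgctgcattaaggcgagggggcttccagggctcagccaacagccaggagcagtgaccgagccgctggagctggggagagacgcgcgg
Barx1: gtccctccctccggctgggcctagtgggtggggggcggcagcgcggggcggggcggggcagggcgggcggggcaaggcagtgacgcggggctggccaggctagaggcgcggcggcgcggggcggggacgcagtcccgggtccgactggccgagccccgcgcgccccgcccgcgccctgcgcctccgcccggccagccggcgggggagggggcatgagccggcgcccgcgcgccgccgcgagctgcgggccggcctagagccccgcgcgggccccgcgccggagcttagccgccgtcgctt
Nid1: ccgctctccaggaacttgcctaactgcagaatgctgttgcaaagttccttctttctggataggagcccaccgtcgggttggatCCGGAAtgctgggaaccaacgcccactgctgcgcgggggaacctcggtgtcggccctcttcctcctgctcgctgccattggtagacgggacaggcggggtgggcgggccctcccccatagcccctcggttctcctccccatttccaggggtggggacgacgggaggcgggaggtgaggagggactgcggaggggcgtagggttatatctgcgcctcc
The Barx1 window was richest in G and C of the 3 (84.7%), and Nid1 held the only ETS core. The T-box letters TCACACCT, searched on both strands, were in none of the 3 windows. Over genes, these letters were in 0 of the 55 windows found for genes higher in T-positive cells, in 3 of 63 for lower genes (4.76%) and in 34 of 4667 for all tested genes (0.729%). The ETS core was in 30.9%, 25.4% and 38.7% in that order, and neither motif contains the other. A match describes these letters only, and no match says only that they are absent from this window.

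Lhx1 encodes a LIM homeobox factor that GDNF maintains in spermatogonia. Its level was 341, 170 and 267 CPM in the T-positive cells of plates 1, 2 and 4, and 65.2, 91.5 and 78.1 in the matched cells. Every T-positive sum lay above every matched sum, and the log2 fold change was 1.57 ± 0.22 (SE; edgeR, adjusted p = 9.42e-06). A UMI of Lhx1 was found in 65.3% of T-positive cells (interval 55.2 to 74.5) and 25.2% of matched cells (19.4 to 31.8), and in 37.8% and 13.3% after thinning to 2000 UMIs. None of the 29 Sertoli-marked cells had one. Among T-positive cells, the share was 59.7% in the 67 cells with 1 T UMI and 76.5% in the 34 with more, whose median depths were 5229 and 6711 UMIs, and the intervals overlapped (47.0 to 71.5 and 58.8 to 89.3).

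Barx1, a homeobox gene known from stomach and craniofacial mesenchyme, stood at 168, 111 and 93.2 CPM in T-positive cells and at 41.7, 36.0 and 37.5 in matched cells. The groups did not overlap and the T-positive level was highest in plate 1 (log2 fold change 1.64 ± 0.29, SE; edgeR, adjusted p = 0.000344). Plvap encodes a protein of the diaphragms of endothelial caveolae and fenestrae. It stood at 105, 105 and 87.0 CPM against 33.9, 34.3 and 40.6, again without overlap (1.43 ± 0.31, SE; edgeR, adjusted p = 0.00344), although without plate 2 the call was lost (1.31, edgeR adjusted p = 0.112). Per cell, 18 T-positive cells carried all of Lhx1, Barx1 and Plvap, 35 carried 2 of them, 36 carried 1 and 12 (11.9%) carried none. In the matched cells the same numbers were 9, 21, 53 and 119 (58.9%).

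**Figure D1:**
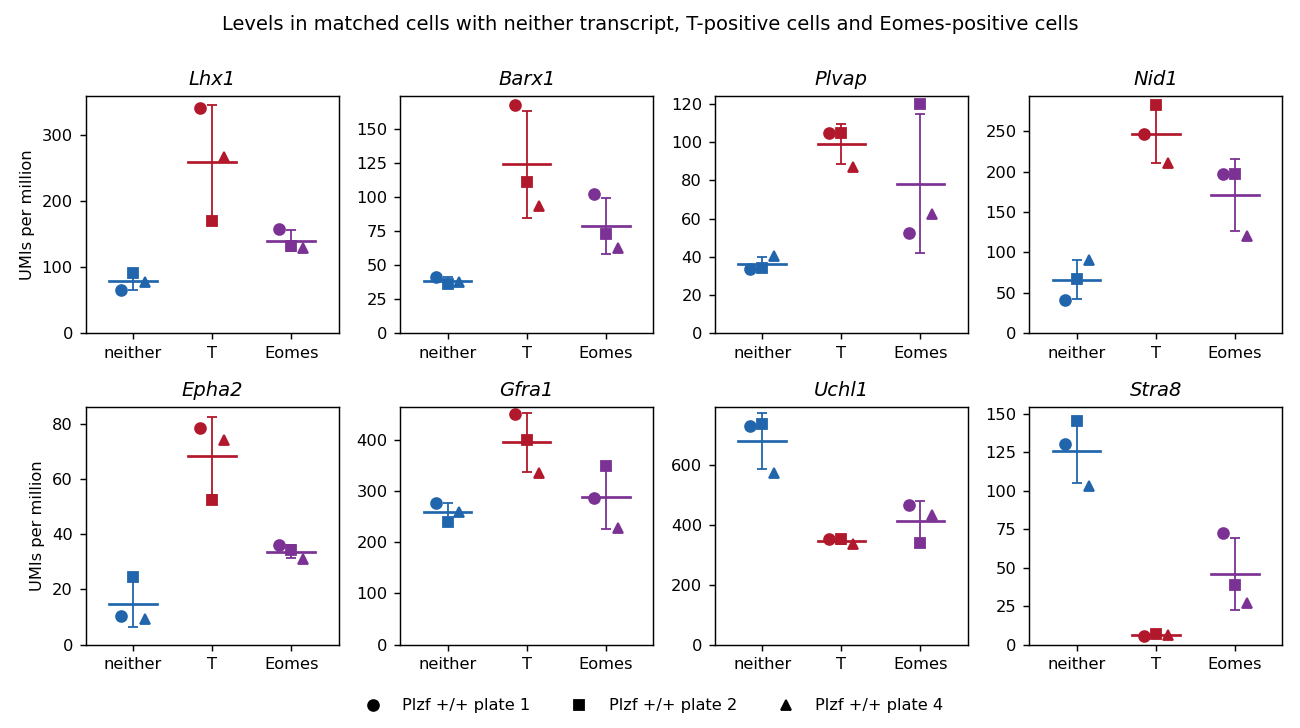
Levels of 8 genes in CPM of the summed cells (vertical axis, linear from 0) for Plzf +/+ cells with neither T nor Eomes, matched on depth (neither), for T-positive Eomes-negative cells (T) and for Eomes-positive cells (Eomes). Points are the libraries of plates 1, 2 and 4, and lines and bars give the mean ± SD of 3; Lhx1, Barx1, Plvap, Nid1, Epha2 and Gfra1 lie higher and Uchl1 and Stra8 lower in all 3 T-positive sums than in all 3 matched sums.

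Across all genes, T-positive and matched cells were compared on UMIs summed per library and cell group, with the library as a block. Of 6342 genes tested, 157 (2.48%) passed an adjusted p of 0.05, 70 higher in T-positive cells (1.1%) and 87 lower (1.37%). Of these, 67 of the 70 and 86 of the 87 moved the same way in all 3 libraries, a description only, since the test chose them on these same libraries. The number of calls depended on the tool, since DESeq2 called 5 genes higher (Nid1, Fnbp1l, Lhx1, Chd4 and Ptpn13) and 3 lower (Uchl1, Cox8c and Meig1), with 4672 genes given no adjusted p. Meig1 did not pass in edgeR (-1.31, adjusted p = 0.228), and without the cells with spermatid transcripts Cox8c went from -1.72 to -0.16 and Meig1 to -0.09 (edgeR adjusted p of 0.897 and 0.95). All 70 higher genes and all 87 lower genes kept their direction under DESeq2.

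**Figure D2:**
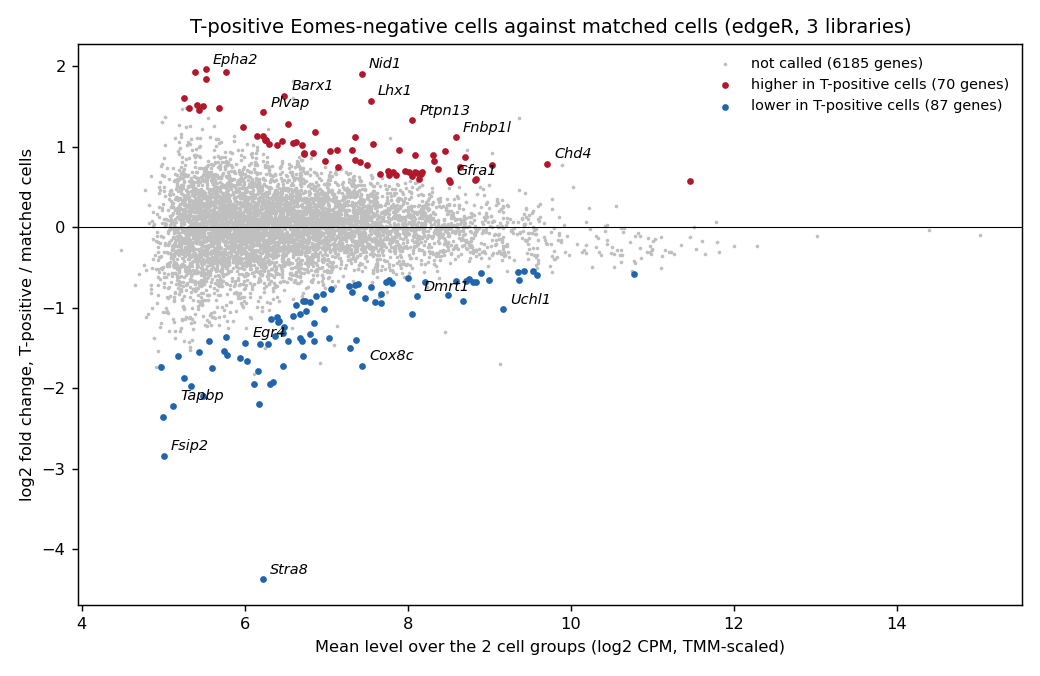
Each point is 1 of 6342 genes: horizontal axis, mean level of the T-positive and matched sums (log2 CPM); vertical axis, log2 fold change of T-positive over matched cells from edgeR. The 70 higher genes are red and the 87 lower genes blue, among them Stra8, which stands furthest from 0 at -4.38.

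Outside the marker genes, Nid1 gave the smallest p among the higher genes. It encodes nidogen, a basement membrane glycoprotein that links laminin and collagen networks. Nid1 stood at 246, 282 and 211 CPM in T-positive cells and 41.7, 67.0 and 90.6 in matched cells (log2 fold change 1.91 ± 0.22, SE; edgeR, adjusted p = 1.91e-08). The groups were far apart, and a UMI was found in 69.3% of T-positive and 28.2% of matched cells, against 6.9% of the Sertoli-marked cells.

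Among called genes higher in all 3 libraries, the largest rise was that of Epha2, a receptor tyrosine kinase for ephrins. It stood at 78.6, 52.4 and 74.5 CPM in T-positive cells and 10.4, 24.5 and 9.37 in matched cells (1.96 ± 0.42, SE; edgeR, adjusted p = 0.00361), from 43 UMIs in 30 T-positive cells. Hs3st3b1, a heparan sulfate sulfotransferase, stood at 94.4, 91.7 and 49.7 against 10.4, 22.9 and 28.1 (1.93 ± 0.39; edgeR, adjusted p = 0.00146). Both genes separated the groups in every library.

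The other 7 genes of the 12 with the largest rise were Mapk11, a stress-activated MAP kinase, Plb1, a phospholipase, Tmc6, a transmembrane channel-like protein, Trib1, a pseudokinase, Tmem59l, a transmembrane protein, Neil3, a DNA glycosylase of base excision repair, and Thnsl2, related to threonine synthase. Their log2 fold changes ran from 1.48 to 1.93 and their adjusted p (edgeR) from 0.00611 for Mapk11 to 0.0404 for Trib1. They were low genes, found in 24.8 to 37.6% of T-positive cells when Hs3st3b1 is counted with them. At least 3 of the 12 genes were detected in 87.1% of T-positive cells and 26.2% of matched cells, a description only, since the genes were chosen by their rise between these same cells.

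Leaving out 1 library ended some of these calls. Nid1, Barx1, Lhx1 and Hs3st3b1 passed without any 1 of the 3 libraries. Epha2 (edgeR adjusted p = 0.0587), Mapk11 (0.0688) and Tmc6 (0.32) were lost without plate 1, Tmc6 also without the cells with spermatid transcripts (1.31, adjusted p = 0.118), and Trib1 (0.139) without plate 4. Plb1 (highest adjusted p of 0.0728, and a value of 2.83 without plate 2) and Tmem59l (0.148) were lost without plate 1 and without plate 4, Thnsl2 (0.206) without plate 1 and without plate 2, and Neil3 (0.1) without plate 1 and without plate 4. Tmc6, Trib1 and Neil3 could not be tested without plate 2, so Neil3 passed in no fit with 1 library left out.

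A group of broadly expressed genes was also higher, chosen here after their values were seen because DESeq2 called them too. Ptpn13, a protein tyrosine phosphatase, stood at 414, 387 and 230 CPM in T-positive cells and 136, 118 and 156 in matched cells (1.33 ± 0.19, SE; edgeR, adjusted p = 8.47e-06). Fnbp1l, a membrane-bending adaptor of actin assembly, stood at 498, 374 and 553 against 198, 157 and 297 (1.12 ± 0.16; edgeR, adjusted p = 9.42e-06). Chd4, the helicase of the NuRD chromatin complex, stood at 1070, 862 and 950 against 519, 482 and 628 (0.79 ± 0.15; edgeR, adjusted p = 0.000817). None of the 3 overlapped between groups, and Chd4 lost its call without plate 2 (edgeR adjusted p = 0.112).

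The GDNF receptor gene Gfra1 was higher in T-positive cells, at 451, 400 and 335 CPM against 277, 239 and 259 in matched cells (log2 fold change 0.58 ± 0.16, SE; edgeR, adjusted p = 0.0384). A Gfra1 UMI was found in 91.1% of T-positive cells (interval 83.8 to 95.8) and 64.4% of matched cells (57.3 to 71.0), and in 6.9% of the Sertoli-marked cells. The groups did not overlap, but the call ended without plate 1, without plate 2 (edgeR adjusted p = 0.473), and without the cells with spermatid transcripts, where the value was again 0.58 (0.0626). Its partner Ret stood at 126, 161 and 137 against 75.7, 85.0 and 128 and did not pass (0.58 ± 0.23; edgeR, adjusted p = 0.185). Fgfr1 was found in 19.8% of T-positive and 8.42% of matched cells and was too low to test.

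Of 17 GDNF and FGF response genes, 11 were tested, 10 with a positive log2 fold change. Of the 11, 4 passed as higher and 1 as lower, beside 1.1% and 1.37% of all genes, and the median log2 fold change was 0.69 beside 0.0 over all genes. The 4 higher genes were Lhx1, Egr2, Dusp6 and Bcl6b. Egr2, an early growth response factor, stood at 477, 429 and 348 CPM against 185, 195 and 266 (0.95 ± 0.17, SE; edgeR, adjusted p = 0.000453). Dusp6, the phosphatase that switches off ERK kinases, stood at 152, 246 and 205 against 83.5, 89.9 and 103 (1.12 ± 0.21; edgeR, adjusted p = 0.000467). Neither gene overlapped between groups, and both lost the call without plate 2 (edgeR adjusted p of 0.058 for Egr2 and 0.134 for Dusp6).

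Bcl6b, a transcriptional repressor needed for stem cell maintenance, stood at 105, 131 and 31.1 against 36.5, 52.3 and 31.2, so that plate 4 showed no difference (1.14 ± 0.31, SE; edgeR, adjusted p = 0.0331, lost without plate 1 at 0.177). It could not be tested without plate 2. The gene that went down was Egr4, of the same family as Egr2. It stood at 41.9, 19.7 and 37.3 CPM in T-positive cells and 115, 73.6 and 56.2 in matched cells (-1.44 ± 0.35; edgeR, adjusted p = 0.0145, lost without plate 1 and, at 0.255, without plate 2). Etv5 (0.64, edgeR adjusted p = 0.0912) and Etv4 (1.03, 0.0912), both ETS factors downstream of FGF and GDNF signals, had positive values and did not pass.

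Of the 9 identity genes of undifferentiated spermatogonia, 5 were tested and Gfra1 alone passed, as higher, beside 1.1% of all genes. Zbtb16, which encodes PLZF itself, was found in 34.7% of T-positive and 40.6% of matched cells (-0.11 ± 0.28; edgeR, adjusted p = 0.928), and Bmi1, a Polycomb gene, in 46.5% and 41.6% (0.1 ± 0.25; 0.925). Id4, an inhibitor of helix-loop-helix factors, stood at 194, 210 and 74.5 CPM against 86.1, 83.4 and 137, higher in plates 1 and 2 and lower in plate 4 (0.72 ± 0.34; edgeR, adjusted p = 0.368). Without plate 4 Id4 passed (1.21, adjusted p = 0.00024), and without plate 1 or plate 2 it did not, with values down to 0.24. Lin28a, an RNA-binding protein, was found in 23.8% of both groups (-0.28 ± 0.37; 0.815). Nanos2 was found in 10.9% and 9.41%, Pdx1 in 16.8% and 9.9% and Pax7 in 0.99% and 0.495%, all too low to test. Neurog3, a progenitor gene, was found in 0 of 101 T-positive cells (up to 2.97% by 3 counts of the total, exact upper bound 3.59%) and in 7 of 202 matched cells (3.47%). Its UMIs numbered 0 and 10, and the 95% interval of the ratio of matched to T-positive level ran from 1.12 upwards, for counting error only. T-positive cells carried a mean of 2.82 of the 9 genes and matched cells 2.3.

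Of the 17 genes on the list of undifferentiated spermatogonia, 13 were tested and 2 passed as higher, Lhx1 and Mcam, beside 1.1% of all genes, with a median of 0.12. Lhx1, a marker gene of these cells, is also on the response list, so its call counts in both. Mcam, a cell adhesion molecule of the cell surface, stood at 346, 550 and 460 CPM against 206, 265 and 325, each T-positive sum above each matched sum (0.75 ± 0.16, SE; edgeR, adjusted p = 0.00411, lost without plate 2 at 0.347). Sall4 (-0.06) and Foxo1 (-0.16) had values near 0 and did not pass (edgeR adjusted p of 0.947 and 0.835). Nanos3, also on the progenitor list, had the lowest value and did not pass (-1.4, edgeR adjusted p = 0.0742). A Nanos3 UMI was found in 9.9% of T-positive and 22.3% of matched cells.

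All 5 tested genes of the progenitor list, of 10 listed, had negative values, with a median log2 fold change of -0.68. Crabp1, a retinoic acid binding protein, was the 1 that passed, as lower, beside 1.37% of all genes, at 73.4, 75.4 and 43.5 CPM against 125, 157 and 103 (-1.04 ± 0.26, SE; edgeR, adjusted p = 0.0134, lost without plate 2 at 0.238). Sohlh1, a germ cell helix-loop-helix factor, had a value of -0.68 and did not pass (edgeR adjusted p = 0.126). Among genes too low to test, Sox3 was found in 0 T-positive and 12 matched cells and Upp1 in 1 and 28. The summed list stood at 248 to 273 CPM in T-positive cells and 353 to 613 in matched cells, without overlap.

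Stra8, the retinoic acid-induced gene of differentiating spermatogonia and meiotic entry, gave the largest difference of all tested genes. The T-positive cells held 1, 2 and 1 UMIs of it in plates 1, 2 and 4, and the matched cells 50, 89 and 33. The levels were 5.24, 6.55 and 6.21 against 130, 145 and 103 CPM (log2 fold change -4.38 ± 0.46, SE; edgeR, adjusted p = 1.76e-09), and from the pooled counts the matched level was 21.5 times the T-positive one (counting interval 8.24 to 79.7). A UMI was found in 3.96% of T-positive and 21.8% of matched cells. The call held without any 1 library and without the cells with spermatid transcripts (-4.15; edgeR, adjusted p = 3.09e-10).

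Of the 10 genes of differentiating spermatogonia, 7 were tested and 4 fell, beside 1.37% of all genes, with a median of -0.86. After Stra8 came Uchl1, a deubiquitinase that is also made by undifferentiated spermatogonia, at 351, 351 and 335 CPM against 728, 737 and 572 (-1.02 ± 0.16, SE; edgeR, adjusted p = 2.73e-05), which held without any 1 library. Dmrt1, a regulator of the choice between mitosis and meiosis, stood at 173, 170 and 199 against 323, 356 and 256 (-0.86 ± 0.18; edgeR, adjusted p = 0.00318, lost without plate 2 at 0.224). Dmrtb1, of the same family, had 0, 22 and 1 UMIs against 31, 84 and 17 (-1.66 ± 0.42; edgeR, adjusted p = 0.0371), with a value of -4.42 without plate 2 and of -1.19 without plate 1, where the call was lost (0.0631). Of its T-positive UMIs, 69.6% lay in 1 cell, and it could not be tested without the cells with spermatid transcripts. Kit, the receptor that marks differentiating spermatogonia, was found in 11.9% of T-positive and 8.42% of matched cells and was too low to test, and Ccnd1 had a value of 0.42 (edgeR adjusted p = 0.414).

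**Figure D3:**
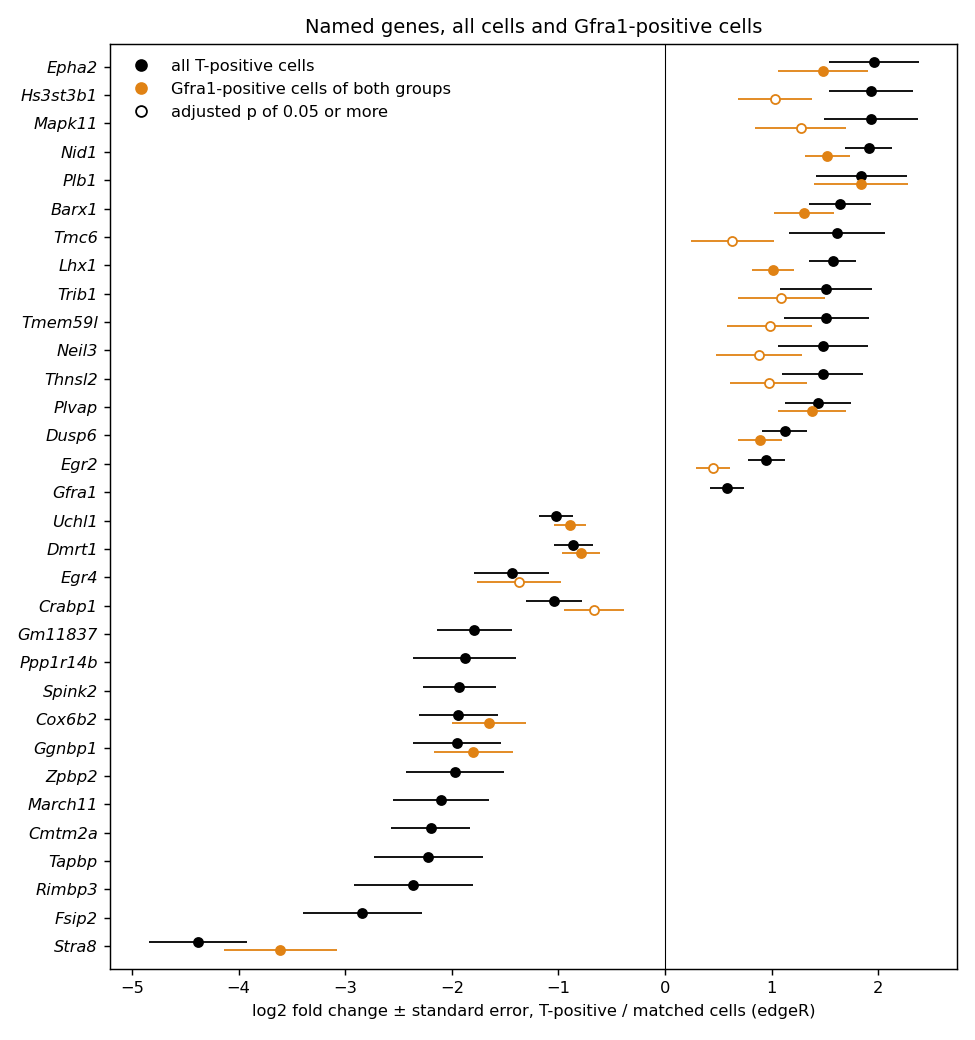
Log2 fold change ± SE (edgeR, horizontal axis) of T-positive over matched cells for 32 named genes, in all cells (black) and in cells of both groups that carried a Gfra1 UMI (orange), with open points for an adjusted p of 0.05 or more; genes without an orange point were not tested there. From Epha2 to Gfra1 the points lie above 0 and from Uchl1 to Stra8 below it, and the 2 comparisons share cells.

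The other 11 of the 12 genes with the largest fall were Fsip2 of the fibrous sheath, Rimbp3 of the manchette, Zpbp2 and Spink2 of the acrosome, Cox6b2 of testis mitochondria, Ggnbp1, Cmtm2a, March11, Ppp1r14b, Gm11837 and Tapbp, the tapasin gene of antigen loading, with log2 fold changes from -2.84 (Fsip2) to -1.79 (Gm11837). Fsip2 had 0, 4 and 1 UMIs in T-positive cells and 14, 44 and 14 in matched cells, and Cmtm2a 0, 15 and 3 against 31, 109 and 19. Of the 11 genes, 8 had over 20% of their matched UMIs in 1 cell, while Cmtm2a had 17.6%, Ppp1r14b 8.45% and Tapbp 4.62%. Among all called genes, 23 of the 87 lower genes had over 20% of their matched UMIs in 1 cell, and 0 of the 70 higher genes had over 20% of their T-positive UMIs in 1 cell. Without the cells with spermatid transcripts, 61 of the 87 could still be tested, 60 kept their direction and 31 their call, with a median of -0.74. Of the 12, only Stra8 and Tapbp could still be tested (Tapbp -2.09; edgeR, adjusted p = 0.0144, and lost without plate 2 at 0.0586). Rimbp3, Zpbp2 and Ppp1r14b lost their call without plate 1 (edgeR adjusted p of 0.117, 0.081 and 0.241), and Zpbp2 could not be tested without plate 2. Without plate 2 the values of Rimbp3, Spink2 and Ppp1r14b were -4.09, -3.15 and -3.35, in place of -2.36, -1.93 and -1.88.

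Spermatid marker genes themselves gave no call. Of 14 listed, 9 were tested, 7 with positive values and none passed, with a median of 0.96. The summed list stood at 745, 12000 and 367 CPM in T-positive cells of plates 1, 2 and 4 and 386, 2300 and 2170 in matched cells, so the groups overlapped. Of the spermatocyte list, 9 of 14 were tested and Sycp3, of the synaptonemal complex, passed as lower, beside 1.37% of all genes, at 131, 131 and 87.0 against 183, 211 and 159 (-0.7 ± 0.21, SE; edgeR, adjusted p = 0.0487), a call lost without any 1 library (0.0933 to 0.307) and without the cells with spermatid transcripts (-0.61, adjusted p = 0.141).

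**Figure D4:**
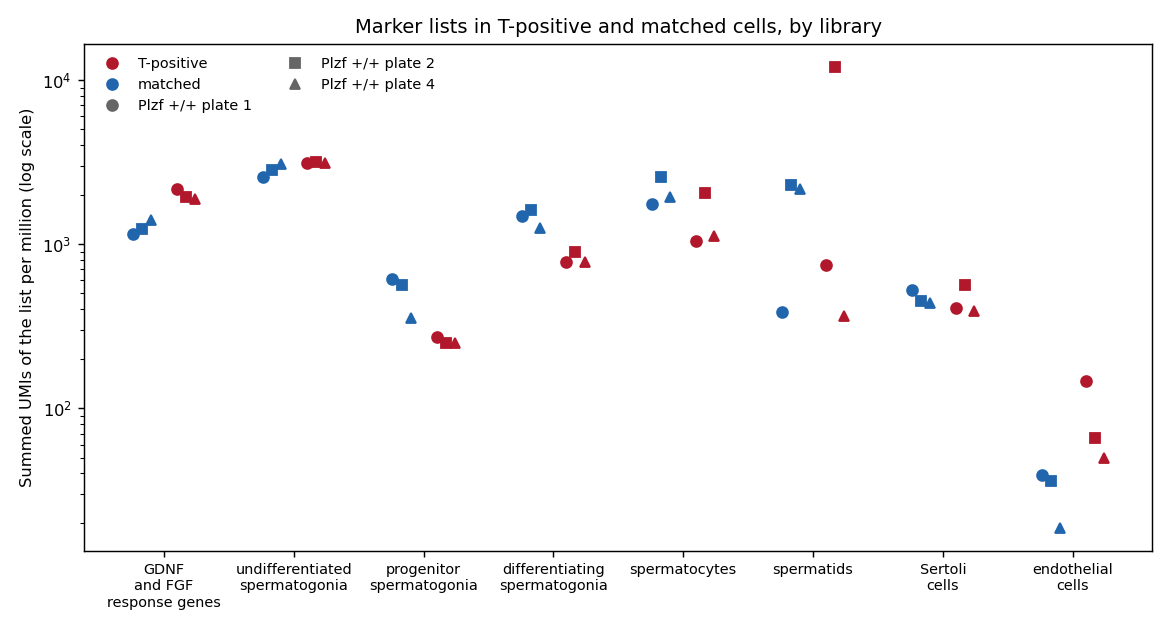
Summed level of 8 gene lists (horizontal axis) in CPM (vertical axis, log scale) in T-positive (red) and matched (blue) cells, with 1 point for each of the libraries of plates 1, 2 and 4. The GDNF and FGF response list lies higher (1870 to 2180 against 1160 to 1400) and the progenitor and differentiating lists lower in all 3 T-positive sums, while the spermatid list overlaps, with plate 2 far above the rest at 12000.

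To ask which differences remain among cells with the GDNF receptor transcript, the 92 T-positive cells with a Gfra1 UMI were compared with 184 matched Gfra1-positive cells. Many of these cells also enter the comparison above, so the values are set side by side only. Of 6002 genes tested, 59 passed (0.983%), 28 higher (0.467%) and 31 lower (0.516%), while DESeq2 called 0 (37 higher and 57 lower at an unadjusted p of 0.05, against 296 and 317 in edgeR). Nid1 stood at 246, 274 and 193 CPM against 59.7, 86.0 and 107 (1.52 ± 0.21, SE; edgeR, adjusted p = 7.6e-09), and Stra8 at 5.48, 7.04 and 6.9 against 95, 80.7 and 69.2 (-3.61 ± 0.53; edgeR, adjusted p = 4.37e-08). Both passed without any 1 library, and neither overlapped between groups.

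Lhx1 stood at 334, 169 and 241 CPM in the Gfra1-positive T-positive cells against 78.8, 153 and 100 (1.01 ± 0.2, SE; edgeR, adjusted p = 0.000432). It was lost without plate 1, where the value was 0.54, and without plate 4 (edgeR adjusted p of 0.5 and 0.314), and plate 2 showed the smallest difference. The value was 1.66 without plate 2 (edgeR adjusted p = 9.73e-06). Barx1 (1.3; edgeR, adjusted p = 0.00123), Plvap (1.38; 0.00358), Epha2 (1.48; 0.0423), Plb1 (1.84; 0.00686) and Dusp6 (0.89; 0.00566) also passed as higher. Of the 70 genes higher in all T-positive cells, 69 were tested here and 22 passed as higher. Of the 12 with the largest rise, 7 did not pass, among them Hs3st3b1 (1.03; edgeR, adjusted p = 0.144), Mapk11 (1.27; 0.144) and Tmc6 (0.63; 0.641). Barx1, Plvap, Epha2, Plb1 and Dusp6 each lost the call without at least 2 of the 3 libraries. Their highest adjusted p (edgeR) was 0.197, 0.218, 0.565, 0.361 and 0.29 in that order. Without the cells with spermatid transcripts, Epha2 (1.47; edgeR, adjusted p = 0.0639) and Dusp6 (0.8; 0.0532) kept nearly the same value and no longer passed. Egr2 (0.45; edgeR, adjusted p = 0.165), Bcl6b (0.53; 0.545), Mcam (0.47; 0.14) and Ret (0.05; 0.968) did not pass.

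Uchl1 (-0.89 ± 0.15; edgeR, adjusted p = 4.22e-06) and Dmrt1 (-0.79 ± 0.18; 0.00365) were lower among Gfra1-positive cells as well. Uchl1 lost its call without plate 4 (edgeR adjusted p = 0.0635) and Dmrt1 without any 1 library (0.0524 to 0.307). Crabp1 did not pass here (-0.67; edgeR, adjusted p = 0.325). Genes of the spermatid list passed too: Gapdhs, Oaz3 and Smcp were called higher, with the direction seen in 2 of 3 libraries, and 76.3%, 83.1% and 81.8% of their UMIs over all T-positive cells came from 1 cell. Of the response list 11 genes were tested among Gfra1-positive cells and 2 passed as higher (median 0.4), and of the differentiating list 6 were tested and 3 passed as lower (median -0.84). Over all genes 0.467% were higher and 0.516% lower, with a median of -0.002. Without the cells with spermatid transcripts, 16 genes were higher and 10 lower.

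T-positive cells were also compared with the 85 Eomes-positive cells, without matching on depth (median 7476 UMIs per Eomes-positive cell). Of 5244 genes tested, 0 were higher in T-positive cells (0.0%) and 33 lower (0.629%) by edgeR. At an unadjusted p of 0.05 edgeR gave 130 higher and 364 lower, and DESeq2 called 0 higher and 2 lower, Ggnbp1 and Cmtm2a. These 2 were also lower in edgeR (-3.48 and -3.26; adjusted p of 0.000133 and 0.000854), and 10 of the 85 Eomes-positive cells carried 10 or more spermatid UMIs. Without the cells with spermatid transcripts the edgeR calls became 2 higher, Ptpn13 (0.83; adjusted p = 0.0405) and Lonp2, a peroxisomal protease (0.86; 0.0405), and 4 lower. The lower genes were Hist1h1a, a linker histone gene (-1.41; edgeR, adjusted p = 0.00694), the tubulin genes Tuba3b and Tubb4b, and Hmgn5, a nucleosome-binding gene.

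The marker genes of the T-positive cells were also present in Eomes-positive cells. Lhx1 stood at 158, 132 and 129 CPM there, each below every T-positive sum (0.74 ± 0.24, SE; edgeR, adjusted p = 0.239, not passed). Barx1 stood at 102, 72.6 and 62.3 and Plvap at 52.6, 120 and 62.3, values that overlapped those of T-positive cells (edgeR adjusted p of 0.592 and 0.892). Nid1 stood at 197, 197 and 120 CPM, each below every T-positive sum (0.41 ± 0.22, edgeR adjusted p = 0.609, not passed). It was found in 71.8% of Eomes-positive and 69.3% of T-positive cells. Among Eomes-positive cells, Lhx1 was found in 84.8% of the 33 with a T UMI and 44.2% of the 52 without, with median depths of 7579 and 6975.5 UMIs. Set against these 52 cells alone, an alternative added after the data were seen, T-positive cells had 8 genes higher and 23 lower of 4017 tested. By adjusted p (edgeR), the higher genes were led by the spermatid gene Prm2 (1.24; 7.06e-06), with 77.0% of its T-positive UMIs in 1 cell, then Lonp2 (1.3; 0.000319), Ptpn13 (1.16; 0.00106) and Lhx1 (1.3 ± 0.29, SE; 0.00234). The lower genes were led by the histone gene Hist1h1a (-1.73; 7.06e-06), the tubulin gene Tuba3b (-1.15; 7.06e-06) and the histone gene Hist1h2ab (-1.36; 0.000358).

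In Plzf lu/lu libraries, all cells were compared with all Plzf +/+ cells, since the mutant held too few T-positive cells. Of 13728 genes tested, 80 were higher in Plzf lu/lu (0.583%) and 32 lower (0.233%). T itself, given as a description, stood at 38.5, 37.9 and 19.9 CPM in Plzf +/+ cells, and at 1.53 (plate 3) and 0.0 (plate 4) in Plzf lu/lu cells. Lhx1 stood at 98.1, 88.5 and 86.3 against 20.3 and 7.86 (-2.3 ± 0.28, SE; edgeR, adjusted p = 0.0186), Barx1 at 57.3, 45.5 and 42.4 against 3.07 and 3.93 (-3.85 ± 0.37; 0.0104), and Nid1 at 93.5, 107 and 92.3 against 25.7 and 23.6 (-1.9 ± 0.2; 0.0126). No Plzf lu/lu value reached a Plzf +/+ value, on plate 4 as well. Of the Sertoli list, all 11 tested genes had positive values in Plzf lu/lu (median 1.92), and 4 passed as higher, beside 0.583% of all genes. Gfra1 had a negative value and did not pass (-0.75, edgeR adjusted p = 0.0641). These are sums over all sorted cells, and the part of the cell mix in the differences was not tested. Per cell, Lhx1 was found in 30.0%, 33.7% and 31.0% of Plzf +/+ cells and in 8.28% and 5.26% of Plzf lu/lu cells. The cells with a UMI held 209 UMIs in 95 cells on plate 1, 210 in 102 on plate 2, 173 in 86 and 2 in 2 on plate 4, and 53 in 26 on plate 3. Barx1 was found in 24%, 23.4% and 20.6% of Plzf +/+ cells and in 2.55% and 2.63% of Plzf lu/lu cells. Leaving out the 5 cells outside their labelled wells left 108 calls in place of 112.

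Plvap (-2.01; edgeR, adjusted p = 0.0319), Lhx2, a LIM homeobox gene (-2.59; 0.019), Fst, which encodes the activin inhibitor follistatin (-1.23; 0.0423), and Zbtb16 (-1.97; 0.0319) were lower in Plzf lu/lu as well. Lhx2 and Fst, chosen after their values were seen, were higher in T-positive than in matched cells (1.04 and 0.97; edgeR, adjusted p of 0.0251 and 0.000982). Lhx2 lost that call without plate 1 and without plate 2 (highest edgeR adjusted p of 0.177) and without the cells with spermatid transcripts (0.86, adjusted p = 0.102), and Fst without plate 2 (0.296). Egr4, lower in T-positive cells, was higher in Plzf lu/lu, at 207 and 204 CPM against 80.8, 53.1 and 51.9 (1.78 ± 0.22; edgeR, adjusted p = 0.0185). Each of these genotype calls, Lhx1, Barx1 and Nid1 included, was lost when any 1 library other than Plzf +/+ plate 1 was left out, with the highest edgeR adjusted p between 0.344 and 0.348. Without plate 3, Lhx1 and Lhx2 had values of -3.5 and -3.89. The 4 T-positive Plzf lu/lu cells each held 1 T UMI, 1 of them had an Lhx1 UMI and 2 had a Gfra1 UMI.

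Of 28 primitive streak and mesoderm genes listed, 23 were measured, 11 had a UMI in T-positive cells and 2 could be tested. Of these 2, Lhx1 passed as higher, beside 1.1% of all genes, the same call as in the response and undifferentiated lists. Nodal, Foxa2, Cdx1 and Tdgf1 were among those at 0, and Mixl1 had 3 UMIs. Snai1 was found in 11.9% of T-positive and 5.94% of matched cells and Mesp2 in 6.93% and 3.47%, both too low to test, and Mesp1, the other gene tested, in 6.93% of both (-0.77 ± 0.48; edgeR, adjusted p = 0.494). Of 15 other T-box genes, Mga, which pairs with MAX, was the 1 tested (0.21 ± 0.17; edgeR, adjusted p = 0.644), and Tbx3 was found in 14.9% of T-positive and 9.9% of matched cells. None of the 2 tested WNT genes or the 6 tested BMP, activin and Nodal genes passed, with Smad6, an inhibitor of BMP signalling, at 1.47 ± 0.44 (edgeR, adjusted p = 0.0577).

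Against matched cells, none of 31 tested S phase genes passed (median 0.1), and of 39 tested G2 and M phase genes Ccnb2, a B-type cyclin, passed as lower, beside 1.37% of all genes (-0.72 ± 0.21; edgeR, adjusted p = 0.0487, lost without plate 2, at 0.279, without plate 4, and without the cells with spermatid transcripts, at -0.44 and 0.388). Against Eomes-positive cells, none of 29 tested S phase genes passed (median 0.03). Of 39 tested G2 and M phase genes 35 had negative values there (median -0.37), and none passed. Against the Eomes-positive cells with no T UMI, Top2a (-0.99, edgeR adjusted p = 0.00106) and Ccnb1 (-1.06, 0.00114) were among the genes called lower.

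Among markers of other testis cells, the Sertoli list stood at 409, 567 and 391 CPM in T-positive and 527, 451 and 437 in matched cells, and the groups overlapped. Of the 13 genes measured, 10 had a UMI in T-positive cells, and 81 of 101 T-positive and 174 of 202 matched cells carried at least 1 UMI of the list. Most of these were of Ctsl, a lysosomal protease made by many cell types, found in 78.2% and 82.7% of cells (-0.08; edgeR, adjusted p = 0.896). Cst12 was found in 9.9% and 7.92%, Clu in 7.92% and 6.44%, and Defb45 had 7 and 1 UMIs. Wt1, Gata4 and Cldn11 were at 0 in T-positive cells and had 5, 1 and 7 UMIs in matched cells. In all, 7 of 101 T-positive and 3 of 202 matched cells carried 10 or more UMIs of the list, and the part of these cells in the results was not tested. The 4 macrophage markers measured were at 0, and the 3 Leydig markers measured (0.0 to 5.24 CPM) and the peritubular myoid list (6.21 to 21.0 CPM) were near 0. The T and NK cell list (0.0 to 9.83 CPM) and the erythroid list (0.0 to 6.55) were near 0 too.

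The summed endothelial markers stood higher in T-positive cells, without a test, at 147, 65.5 and 49.7 CPM against 39.1, 36.0 and 18.7, with 5 of 9 genes detected. Most of these UMIs were of Kdr, the VEGF receptor gene, with 17, 8 and 1 UMIs against 4, 6 and 1, and of Flt1, a related receptor, with 24 against 22 in all. Kdr was found in 19.8% of T-positive cells (interval 12.5 to 28.9) and 4.95% of matched cells (2.4 to 8.92), and in 3.45% of Sertoli-marked cells. Pecam1, Cdh5 and Tek had 2 UMIs each in T-positive cells and 0, 2 and 5 in matched cells. Vwf, Emcn, Esam and Cldn5 were at 0 in T-positive cells and at 0, 1, 1 and 1 UMIs in matched cells, levels too low to tell the groups apart. No gene of this list had enough UMIs to be tested. Plvap moved with this list, and their relation was not tested.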

How the data were processed

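Per the labels, single cells were sorted into plates of 384 wells, and the submitters' processing notes name bcl2fastq 2.18.0.12, STAR 2.5.4a, Picard 2.9.3 and the build GRCm38. The authors deposited raw UMI counts per gene symbol and cell, 1 table per genotype, not normalized. 0 per-sample columns were left unused. Counts were summed per library and cell group and tested with edgeR 4.0.16 in R 4.3.3 (filterByExpr, TMM, robust glmQLFit and glmQLFTest, Benjamini-Hochberg, threshold 0.05). Between cell groups the library was a block, and T and Eomes were left out. The block is the physical pair, since each library gave both groups. The genotype test had no block and left out neither gene, so T was among its 32 lower genes. DESeq2 1.42.0 and other settings were alternatives. Levels are CPM, the UMIs of a gene scaled to 1000000 UMIs of the summed cells. Cells were thinned without replacement (seed 1), and 3 T-positive and 6 matched cells had fewer than 2000 UMIs. Scripts used Python 3.11.15, numpy 2.4.6, pandas 2.3.3, scipy 1.17.1 and matplotlib 3.10.9, and the fit was tested on simulated data.

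Named genes were the 12 of largest fold change in each direction among genes past the threshold with the same direction in 3 libraries, the marker and identity genes, and from each list the genes that passed or else the 2 of highest level. The cells, lists and tests were chosen with earlier results of these data known. Genes measured from an antisense or near-identical copy cannot be told apart here, since strand handling is not given in the sources used here.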

Additional observations from a re-analysis of the deposited data

How the results depend on the processing

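T-positive cells against matched cells gave 157 calls. This became 8 with DESeq2, 37 without the library block, 26 after thinning to 2000 UMIs, 44 for cells with at least 2 T UMIs, 936 against all eligible cells, 93 without cells with spermatid transcripts (added after the data were seen), and 71 (without plate 1) to 261 (without plate 4) with 1 library left out (74 without plate 2). With no filter there were 205 calls (56 higher and 149 lower), and the 936 calls were 269 higher and 667 lower. Among Gfra1-positive cells, 59 calls became 0 with DESeq2, 4 without the block, 1 after thinning, 575 against all eligible cells, 26 without cells with spermatid transcripts and 7 (without plate 2), 25 (plate 4) or 44 (plate 1) with 1 library left out. The 575 calls were 94 higher and 481 lower. Against Eomes-positive cells, 33 became 2 with DESeq2, 477 with no filter, 0 without the block (edgeR, 114 higher and 165 lower at an unadjusted p of 0.05), 6 without cells with spermatid transcripts and 6 (without plate 2), 64 (plate 4) or 313 (plate 1) with 1 library left out. Between genotypes, 112 became 583 with no filter and 1 to 1387 with 1 library left out, of which 1387 was without Plzf +/+ plate 1, 6 without Plzf lu/lu plate 4 and 1 without each of the others. The share of 11.3% became 3.79% for at least 2 T UMIs, 5.4% and 3.46% after thinning to 2000 and 1000 UMIs, and 9.76 to 12.1% with 1 library left out. Among values past the threshold in either setting, the direction turned for Prm1 against matched cells with at least 2 T UMIs (-2.52), for Prm1 against Eomes-positive cells with 1 library left out (-1.63 without plate 2 to 0.78 without plate 4) and against those without T (0.85), and for Prm2 against those without T (1.24). With 1 library left out, 7 of 57 named genes against matched cells, 6 of 47 among Gfra1-positive cells and 9 of 47 against Eomes-positive cells changed sign at least once. These include Prm1 (-1.94 to 2.46 against matched cells, -0.36 to 2.57 among Gfra1-positive cells), Bmi1 (-0.29 to 0.3 against matched cells) and Zbtb16 (-0.32 to 0.17). All 70 higher genes of the comparison with matched cells kept their direction in every setting in which they could be tested. The causes of these changes were not tested. No paired analysis was possible between genotypes, because only plate 4 held both. The thinner counts after thinning and the 34 cells with 2 or more T UMIs limit what low genes can show.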
